A study of Homo sapiens with 4 samples.

Results

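The proteasome is built from subunits whose genes nearly all carry PSM symbols, and their transcript levels were set side by side in a breast cancer cell line and its lung-metastatic derivative. The members were taken by symbol, as every entry of the deposited table named PSMA to PSMG followed by a number, which gave 50 of the 57815 genes listed. These stand for 48 symbols, because PSMA1 and PSMA2 each have another entry for a readthrough transcript. The parental line is MDA-MB-231, a human triple-negative line. The derivative, LM2-4175 (LM2 in the deposited columns and below), was isolated from it for its spread to the lung, so both share 1 origin and each is a single line. Neither line was treated, and both were grown in the same medium. RNA was sequenced in 2 libraries per cell line and 4 in all. FPKM is the fragment count corrected for transcript length and sequencing depth. Each value was deposited with a lower and an upper confidence bound (conf_lo and conf_hi). The table gives only 1 such value per gene and cell line. No difference below therefore has a replicate check, and no p-value was computed.

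The proteasome degrades proteins that carry ubiquitin chains. Its 20S core is a barrel of 4 rings, with PSMA genes encoding the outer alpha subunits and PSMB genes the inner beta subunits, of which PSMB5, PSMB6 and PSMB7 carry the proteolytic sites. The 19S cap recognises ubiquitin chains and unfolds substrates with its PSMC ATPases and PSMD subunits. Interferon gamma exchanges the catalytic subunits for PSMB8, PSMB9 and PSMB10, which form the immunoproteasome, and induces the PA28 activator genes PSME1 and PSME2. Immunoproteasomes favour peptides that fit MHC class I molecules.

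All changes below are log2(FPKM + 1) in LM2 minus that in the parental line. Adding 1 makes the differences of weakly expressed genes look smaller. A gene was tested where both status entries were OK and its mean was at least 0.5 FPKM, and it was called where it also differed by 1.5-fold or more with no overlap between the bounds of the cell lines. This left 13911 genes and 45 of the 50 members. The 5 members left out were PSMB8, PSMB9, PSMA8, PSMB11 and the readthrough entry of PSMA1. The whole table added up to 632944 FPKM for the parental line and 598147 for LM2, and the median log2 change of the genes tested was -0.04. The mesenchymal marker VIM had 1355 and 1767.5 FPKM, whereas ESR1 and PGR, the hormone receptors absent from triple-negative cells, had at most 0.033 FPKM. The third receptor gene, ERBB2, had 35 and 22.8 FPKM, CD44 had 469.7 and 355 FPKM, and CDH1 had 0.851 and 0.366 FPKM. The epithelial markers KRT18 (448.5 and 181.1 FPKM) and EPCAM (12.3 and 4.93 FPKM) were called lower. White blood cells express immunoproteasome genes, but their marker PTPRC had 0.077 and 0.026 FPKM, CD3E was listed at 0 and CD14 had 1.17 and 1.75 FPKM. CD68 had 107 and 178.9 FPKM, and exons of other genes overlap 85.6% of its exon bases. PECAM1 was not analysed here. In bulk RNA of a culture, fewer cells with a transcript and less transcript per cell cannot be told apart.

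Most proteasome genes had a lower FPKM in LM2, by a small amount. Of the 45 members tested, 38 (84.4%) were lower and 7 were higher, with a median log2 change of -0.24. The corresponding values were 54.5% lower and a median of -0.04 over all genes tested. As the members are abundant transcripts, the same was calculated for the 5043 genes with a mean of at least 20 FPKM, a limit chosen after the values were seen. Of these, 63.7% were lower and the median was -0.12. The members' FPKM summed to 5977 in the parental line and 4994 in LM2, a decrease of the sum to 0.836 of its level. A single member, PSMB1, was called lower and none was called higher, against 4.61% called lower and 4.67% called higher of all genes tested. By the 1.5-fold limit without the bounds, 7 members (15.6%) were lower and none was higher, against 11.8% lower and 10.3% higher of all genes. Of the 5043 genes with a mean of at least 20 FPKM, 579 (11.5%) were past 1.5-fold lower and 293 higher. With the bounds, 237 of them (4.7%) were called lower and 130 higher. The share of members past 1.5-fold lower was thus near the background. None passed it on the higher side, which fewer of these abundant genes passed than the lower side.

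**Figure D1:**
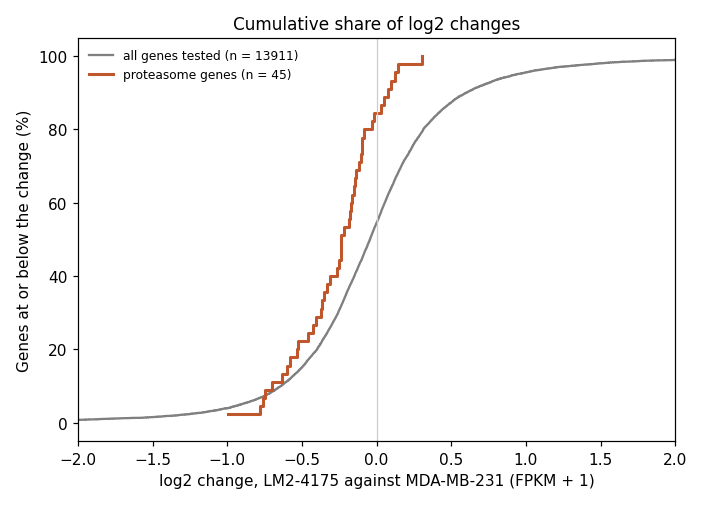
Cumulative share of genes (vertical axis, %) at or below each log2 change of FPKM + 1 in LM2 against MDA-MB-231 (horizontal axis), for the 45 proteasome genes tested and all 13911 genes tested. The curve of the proteasome genes reaches 84.4% at no change, where that of all genes stands at 54.5%, and it ends at 0.30.

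In MDA-MB-231 the levels of the members ran from 11.2 FPKM for the readthrough entry of PSMA2 to 352.6 FPKM for PSMD2, the large 19S scaffold subunit that binds ubiquitin-like domains. In LM2 they ran from 10.2 FPKM for the same readthrough entry to 310.1 FPKM for PSMD2. Across the 45 members, which share libraries and scaling, log2(FPKM + 1) was related between the cell lines with r = 0.967 (Pearson) and rho = 0.967 (Spearman). Over all 13911 genes tested, r was 0.944 and rho 0.943. The bounds lay a median of 25.2% above the FPKM of the members in the parental line and 25.3% in LM2, against 38.6% and 38.1% over all genes tested.

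**Figure D2:**
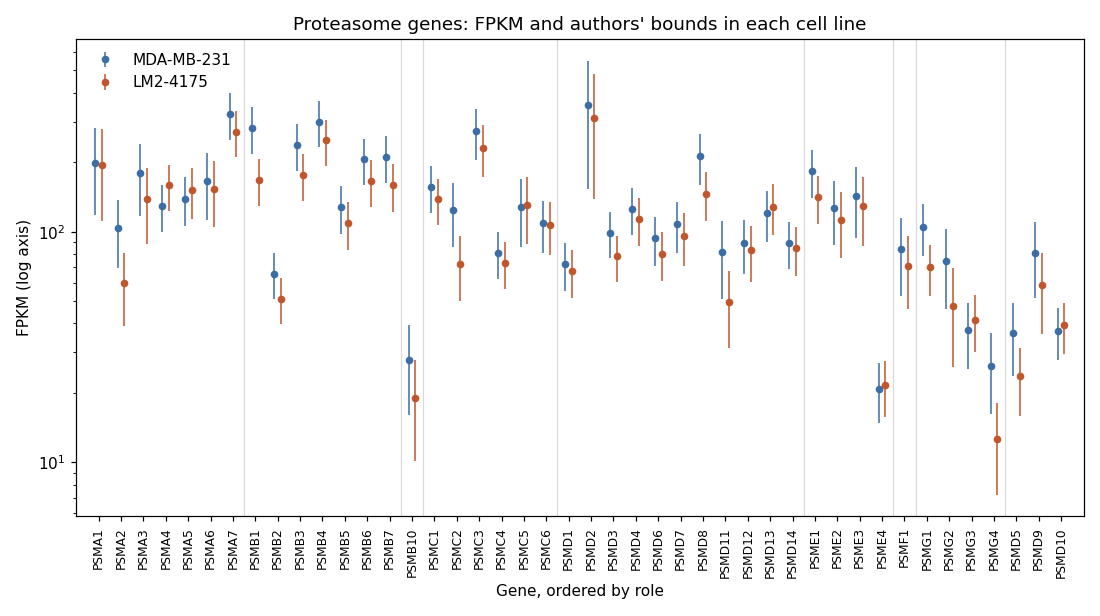
FPKM (vertical log axis) of 44 proteasome genes, without the readthrough entries, in the parental line (blue) and LM2 (orange), ordered by role. Points are the authors' pooled values and bars their lower and upper bounds. Only PSMB1 has bars that do not overlap, 217.4 to 345.8 FPKM against 128.8 to 206.3 FPKM.

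The inner beta ring genes were lower throughout. All 7 constitutive genes PSMB1 to PSMB7 had a lower FPKM in LM2, with a median log2 change of -0.35 and a range of -0.75 to -0.24. Their summed FPKM was 1429.9 in the parental line and 1078 in LM2. PSMB1, a non-catalytic beta subunit (ENSG00000008018, minus strand of chromosome 6 at 170844208 to 170862395 in GRCh37), stood at 281.6 FPKM (217.4 to 345.8) in the parental line. In LM2 its FPKM was 167.6 (128.8 to 206.3), so it fell to 59.5% of its level (log2 change -0.75). The bounds lay close to each other, and PSMB1 was not called when the FPKM of both cell lines was scaled to the same sum. No exon of another gene overlaps PSMB1.

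The catalytic subunits differed less than PSMB1. Their log2 changes were similar to those of the non-catalytic PSMB2 (-0.35), PSMB3 (-0.43) and PSMB4 (-0.26). PSMB5, which carries the chymotrypsin-like site, had 128.1 FPKM (98 to 158.1) in the parental line and 108.6 FPKM (83.2 to 134) in LM2 (log2 change -0.24). PSMB6, the caspase-like subunit, had 206.2 FPKM (159.3 to 253.1) and 166.1 FPKM (128 to 204.1) (log2 change -0.31). PSMB7, the trypsin-like subunit, had 211.1 FPKM (161.9 to 260.3) and 158.9 FPKM (121.8 to 195.9) (log2 change -0.41). The bounds of each of these genes overlap, so none was called.

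The outer alpha ring was more mixed. Of PSMA1 to PSMA7, 5 were lower and 2 higher, with a median log2 change of -0.10, and their summed FPKM went from 1239 to 1129. PSMA2 had 103.7 FPKM (69.7 to 137.7) in the parental line and 59.8 FPKM (39.1 to 80.5) in LM2 (log2 change -0.78) with overlapping bounds. Exons of other entries overlap 29.7% of its exon bases, among them those of its readthrough entry, which had 11.2 and 10.2 FPKM. The highest log2 change of any member was that of PSMA4, with 129.1 FPKM (99.2 to 158.9) and 159.3 FPKM (123.2 to 195.5) (log2 change 0.30). PSMA1 had a log2 change of -0.03, whose sign turned when both cell lines were scaled to the same sum or centred on the median of all genes.

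Levels of the 14 constitutive core genes were set side by side, as FPKM is corrected for transcript length. Exons shared with other entries were not corrected for, such as 29.7% of the exon bases of PSMA2 and 26.7% of those of PSMA1. Each of these subunits is present in the same number in a complete core, yet their FPKM spread by 4.93-fold in the parental line, from 65.8 for PSMB2 to 324 for PSMA7, and by 5.29-fold in LM2, from 51.3 to 271.4. The coefficient of variation was 0.399 and 0.381. PSMA7 and PSMB4 were the highest and PSMA2 and PSMB2 the lowest in both cell lines. Neighbours in this order had overlapping bounds throughout in the parental line. In LM2 the exception was the step from PSMB5 at 108.6 FPKM down to PSMA2 at 59.8 FPKM. PSMB1 was at rank 3 in the parental line and at rank 5 in LM2.

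The immunoproteasome genes PSMB8 and PSMB9 could not be compared. Both were listed at 0 in both cell lines with bounds of 0 and a status of OK, as was TAP1, the peptide transporter gene next to them. They lie side by side in the MHC region on chromosome 6 of GRCh37, PSMB8 from 32808494 to 32812456 on the minus strand and PSMB9 from 32811913 to 32827628 on the plus strand. Of 75 protein-coding entries within 1 Mb of the start of PSMB9, these included, 70 (93.3%) were under 0.5 FPKM in both cell lines and 54 were listed at exactly 0. On the other chromosomes the share under 0.5 FPKM was 35.8%, and on chromosome 6 beyond 6 Mb from PSMB9 it was 35.5%. The low values covered the bins from 4 Mb before to 1 Mb after PSMB9. They included RPS18, a ribosomal protein gene that all cells use, and BAG6, which were listed at 0 in both cell lines. Of the 3 ribosomal protein genes within 3 Mb of PSMB9, RPS18 was the only 1 listed at 0 or under 0.5 FPKM. Of the 77 ribosomal protein genes elsewhere, 1 was listed at 0. The values of 0 for PSMB8 and PSMB9 therefore give no level for these genes, and no ratio of PSMB8 to PSMB5 or of PSMB9 to PSMB6 was calculated.

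**Figure D3:**
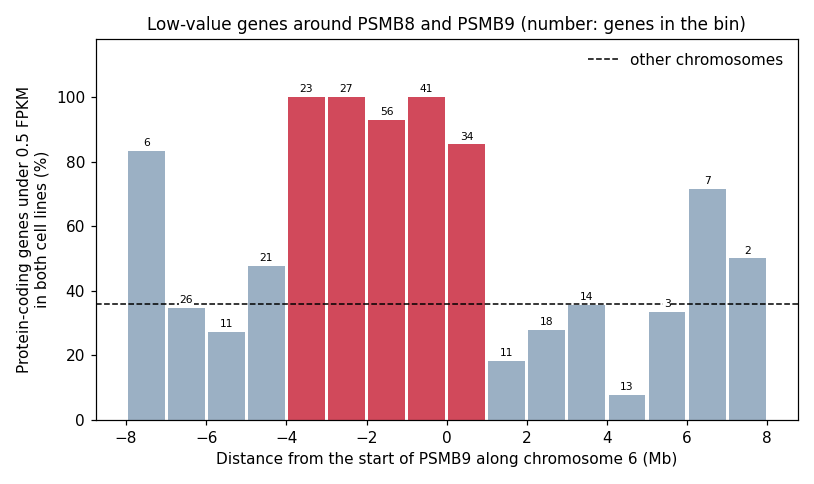
Share of protein-coding genes under 0.5 FPKM in both cell lines (vertical axis, %) in bins of 1 Mb by distance from the start of PSMB9 on chromosome 6 (horizontal axis, Mb), with the number of genes above each bar and the other chromosomes as a dashed line. The red bins from 4 Mb before to 1 Mb after PSMB9 lie at 85.3% to 100%, against 35.8% on the other chromosomes.

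The 3 remaining genes of the interferon-inducible group had values and were lower in LM2. PSMB10, which replaces PSMB7 in the immunoproteasome (minus strand of chromosome 16, GRCh37 67968409 to 67970767), stood at 27.7 FPKM (16 to 39.4) in the parental line and 18.9 FPKM (10.2 to 27.6) in LM2 (log2 change -0.53). An overlapping entry shares 39.4% of its exon bases. PSME1, encoding PA28 alpha (plus strand of chromosome 14 at 24605372 to 24608176), stood at 183.2 FPKM (140.3 to 226.1) and 141.4 FPKM (108.1 to 174.7) (log2 change -0.37). PSME2, encoding PA28 beta (minus strand of chromosome 14 at 24612571 to 24616779), stood at 126.8 FPKM (87.2 to 166.4) and 112.7 FPKM (77.2 to 148.2) (log2 change -0.17). The bounds overlap for all 3 genes and none reached 1.5-fold.

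The interferon-inducible genes were set against the other members. Their median log2 change of -0.37 lay 0.14 below that of the 42 other members tested, which was -0.23, and no test of this distance was possible on 1 value per cell line. Without the filter on low values, which brings in PSMB8, PSMB9 and the 3 other members left out, the difference was 0.02 in the opposite direction. PSMB8 and PSMB9 enter there with a log2 change of 0 that comes from their values of 0. As these values give no level, the turn in direction says nothing about the 2 genes. In both cell lines, PSMB10 had a lower FPKM than PSMB7. Its FPKM was 13.1% of that of PSMB7 in the parental line (6.14% to 24.3% over the bounds) and 11.9% in LM2 (5.19% to 22.7%). The change of this ratio was -0.12 on the log2 scale of FPKM + 1, within the range of the bounds. The ratio of PSME1 to PSME2, which form the PA28 ring together, was 1.44 (0.843 to 2.59) in the parental line and 1.25 (0.73 to 2.26) in LM2.

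The activators outside the interferon-inducible group differed by less than their bounds. PSME3, encoding the nuclear PA28 gamma, had 142.6 FPKM (94.3 to 191) in the parental line and 129.2 FPKM (86.2 to 172.3) in LM2 (log2 change -0.14). PSME4, encoding the activator PA200, had 20.9 FPKM (14.8 to 26.9) and 21.6 FPKM (15.7 to 27.5) (log2 change 0.05). The inhibitor gene PSMF1 had 83.8 FPKM (52.5 to 115.1) and 70.9 FPKM (46.1 to 95.8). PSMA8 and PSMB11, which encode the testis and thymus forms of core subunits, were listed at 0 in both cell lines.

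The promoters of the interferon-inducible members with values are shown because many interferon-induced genes are known to carry interferon-stimulated response elements (ISREs). They are followed by that of PSMG4, the member with the lowest change, whose window holds the same kind of element. PSMA4, the member with the highest change, and PSMB4 hold one as well and are not shown. Sequences are the 250 bases before the gene's start from RefSeq on GRCh38.p14, read 5′ to 3′ on the strand of the gene. Capitals mark an ISRE-like motif (GAAA and GAAA with any 2 bases between them) or an antioxidant response element (ARE, TGACNNNGC), searched on both strands. In PSME1 the capitals are an ARE, in PSME2 an ARE and then an ISRE-like motif, and in PSMB10 and PSMG4 an ISRE-like motif.
PSMB10 promoter (chr16:67936851-67937100, minus strand): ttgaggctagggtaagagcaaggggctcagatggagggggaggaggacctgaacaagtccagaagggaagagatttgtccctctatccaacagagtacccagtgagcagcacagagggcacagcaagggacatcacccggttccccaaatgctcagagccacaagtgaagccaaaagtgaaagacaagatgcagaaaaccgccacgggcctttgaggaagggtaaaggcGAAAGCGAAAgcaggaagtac
PSME1 promoter (chr14:24135944-24136193, plus strand): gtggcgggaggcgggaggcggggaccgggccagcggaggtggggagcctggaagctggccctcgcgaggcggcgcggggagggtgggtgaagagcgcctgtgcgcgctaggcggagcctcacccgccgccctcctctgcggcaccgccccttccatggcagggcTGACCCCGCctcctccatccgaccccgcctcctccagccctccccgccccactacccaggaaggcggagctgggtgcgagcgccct
PSME2 promoter (chr14:24146611-24146860, minus strand): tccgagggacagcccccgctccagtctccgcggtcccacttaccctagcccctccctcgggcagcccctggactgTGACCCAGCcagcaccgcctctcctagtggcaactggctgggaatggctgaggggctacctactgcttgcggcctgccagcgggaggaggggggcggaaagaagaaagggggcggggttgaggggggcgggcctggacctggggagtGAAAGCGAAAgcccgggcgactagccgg
PSMG4 promoter (chr6:3258697-3258946, plus strand): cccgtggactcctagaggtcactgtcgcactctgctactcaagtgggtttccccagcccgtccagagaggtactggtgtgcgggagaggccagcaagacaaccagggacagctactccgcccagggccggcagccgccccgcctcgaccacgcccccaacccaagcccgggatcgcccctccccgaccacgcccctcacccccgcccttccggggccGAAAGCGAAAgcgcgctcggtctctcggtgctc

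Promoters were found for 42 of the 48 symbols, and not for PSMA7, PSMB1, PSMB6, PSMB7, PSMD4 and PSMG3. The ISRE-like motif was in the windows of 5 of the 42 members (11.9%), PSMA4, PSMB4, PSMB10, PSME2 and PSMG4, against 3.71% of 27305 genes with a promoter. These 5 members had log2 changes from -0.996 for PSMG4 to 0.30 for PSMA4. Of the interferon-inducible genes, PSMB8, PSMB9 and PSME1 had no ISRE-like motif in their windows. The ARE was in 13 members (31%) against 13.2% of all genes, CCAAT, the NF-Y box, in 19 (45.2%) against 37%, and an E2F-like TTTCCCGC in 2 (4.76%) against 1.7%. These matches describe letters in a window and do not show binding.

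Most 19S cap genes were lower, with log2 changes from -0.76 to 0.09 over 17 genes. Of the 6 ATPase genes PSMC1 to PSMC6, 5 were lower, with a median log2 change of -0.16. PSMC2 had the largest difference of these, with 124 FPKM (85.9 to 162) in the parental line and 72.7 FPKM (50 to 95.3) in LM2 (log2 change -0.76) with overlapping bounds. PSMC5 had 127.5 and 130.3 FPKM (0.03), and PSMC6, with 108.5 and 107.1 FPKM, had a log2 change of -0.02 that turned its sign under both other scalings. Exons of NRDE2 overlap 76.1% of those of PSMC1, which had 156.6 and 137.9 FPKM.

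Of 11 non-ATPase subunit genes of the cap, 10 were lower and the median log2 change was -0.17. PSMD11, a lid subunit, had 81.3 FPKM (51.1 to 111.4) in the parental line and 49.5 FPKM (31.2 to 67.8) in LM2 (log2 change -0.70). PSMD8, another lid subunit, had 212.2 FPKM (159.9 to 264.4) and 146 FPKM (111.1 to 180.9) (log2 change -0.54). The ubiquitin receptor gene PSMD4 had 125.6 and 113.2 FPKM, and PSMD14, which encodes the deubiquitinase of the lid, had 89.6 and 84.6 FPKM. PSMD13 was the highest by change, at 120.2 and 128.4 FPKM (0.09). All of these bounds overlap.

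The assembly factors ranged from the lowest log2 change of all members to values above 0. They guide the building of the complex and are not part of it, and none was called. PSMG1 to PSMG4 encode the chaperones PAC1 to PAC4 of the core. PSMG4 had 26.2 FPKM (16.2 to 36.2) in the parental line and 12.6 FPKM (7.24 to 18) in LM2 (log2 change -0.996), the lowest of all members tested, with bounds that overlap. PSMG2 had 74.7 FPKM (46.2 to 103.2) and 47.7 FPKM (25.8 to 69.6) (log2 change -0.64). Its partner PSMG1 had 105.2 FPKM (78.7 to 131.7) and 70.1 FPKM (52.4 to 87.8) (log2 change -0.578), just inside the 1.5-fold limit of 0.585. Without the 1 added to FPKM, PSMG1 was 1.50016-fold lower, just past that limit. The ratio of PSMG1 to PSMG2, which act as a pair, was 1.41 (0.763 to 2.85) in the parental line and 1.47 (0.754 to 3.4) in LM2. The other pair had opposite directions, without a call. PSMG3 had 37.4 FPKM (25.5 to 49.3) and 41.5 FPKM (30 to 52.9), and its ratio to PSMG4 was 1.43 (0.705 to 3.05) in the parental line and 3.28 (1.67 to 7.31) in LM2, ranges that overlap.

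Among the assembly factors of the 19S base, PSMD5 had 36.4 FPKM (23.7 to 49.1) in the parental line and 23.6 FPKM (15.8 to 31.4) in LM2 (log2 change -0.60). PSMD9 had 80.7 FPKM (51.3 to 110.1) and 58.4 FPKM (36 to 80.8) (log2 change -0.46). PSMD10, also known as gankyrin, had 37.2 FPKM (27.8 to 46.6) and 39.3 FPKM (29.5 to 49.2) (log2 change 0.08). None of these was called.

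**Figure D4:**
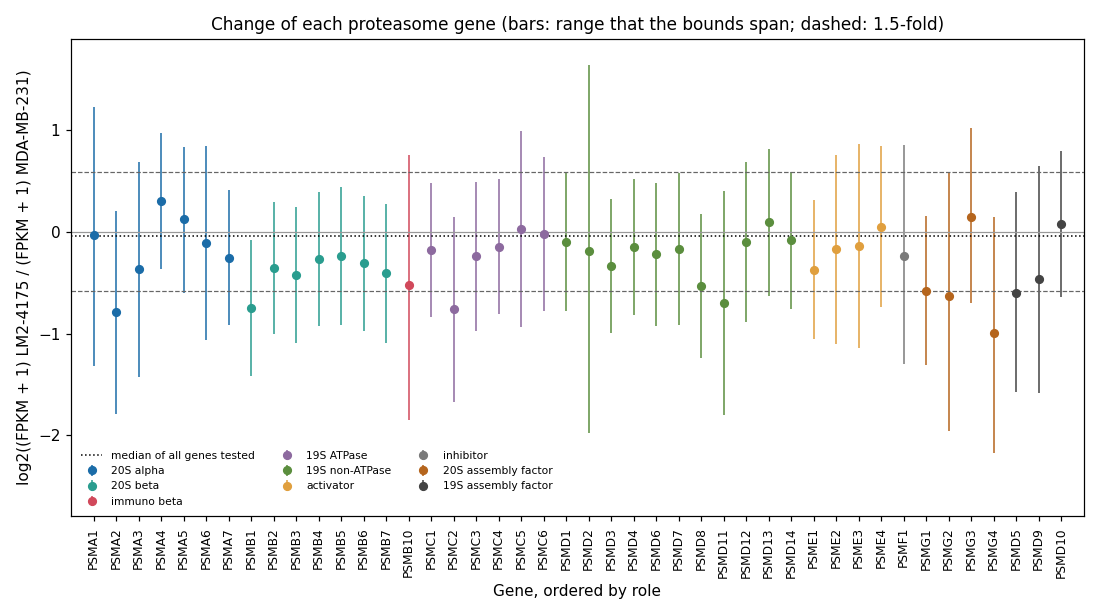
Log2 change of FPKM + 1 in LM2 against MDA-MB-231 (vertical axis) for 44 proteasome genes without the readthrough entries, coloured by role. Bars are the range that the authors' bounds span, dashed lines the 1.5-fold limit and the dotted line the median of all genes tested (-0.04). PSMG4 is lowest at -0.996 and PSMA4 highest at 0.30, and only the bar of PSMB1 stays below 0.

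The members' differences went with those of their neighbours on the chromosome. For 44 members with at least 5 other protein-coding genes tested within 3 Mb, members excluded, the log2 change was set against the median of those neighbours. Pearson's r was 0.71 and Spearman's rho 0.639, and r was 0.767 without the readthrough entry of PSMA2. The same r was 0.309 over 11967 protein-coding genes and 0.358 over the 4900 of these with a mean of at least 20 FPKM. These are descriptions, since the points share libraries and some windows overlap, such as those of PSMB7 and PSMD5 or PSME1 and PSME2. PSMB3 had no match in the annotation and was left out.

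The 7 members past 1.5-fold all had neighbours whose median was lower in LM2, from -0.54 to -0.17. Of all 44 members, 30 had neighbours with a median below 0. Around PSMA2 on chromosome 7, 28 of 31 neighbours were lower (median -0.54), and around PSMC2 on the same chromosome 43 of 48 (median -0.48). For PSMD11 on chromosome 17 it was 35 of 39 (median -0.54), for PSMB1 at the end of chromosome 6 it was 8 of 8 (median -0.50), and for PSMG4 on the other arm of that chromosome 21 of 25 (median -0.36). PSMD5 and PSMB7, close together on chromosome 9, had 22 of 25 and 30 of 33 lower neighbours, both with a median of -0.34. PSMG2 on chromosome 18 was the least clear, with 10 of 18 (median -0.17). At the other end, PSMA4 on chromosome 15 had 5 of 35 lower neighbours and a median of 0.52, and PSMD10 on chromosome X had 4 of 18 and a median of 0.38.

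The 10 members whose neighbours had a median of -0.3 or lower, a limit chosen after the values were seen, had a median log2 change of -0.65. The other 34 had one of -0.18. The 10 are not separate places, as they hold both entries of PSMA2, and PSMB7 with PSMD5, whose windows overlap. The members were also lower than their neighbours. The median of the neighbours' medians was -0.04, and 35 of the 44 members lay below their neighbours, with a median difference of -0.21 over all 44. The neighbours were not matched to the members for abundance. Genes with a mean of at least 20 FPKM had a median of -0.12, below that of all genes tested.

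**Figure D5:**
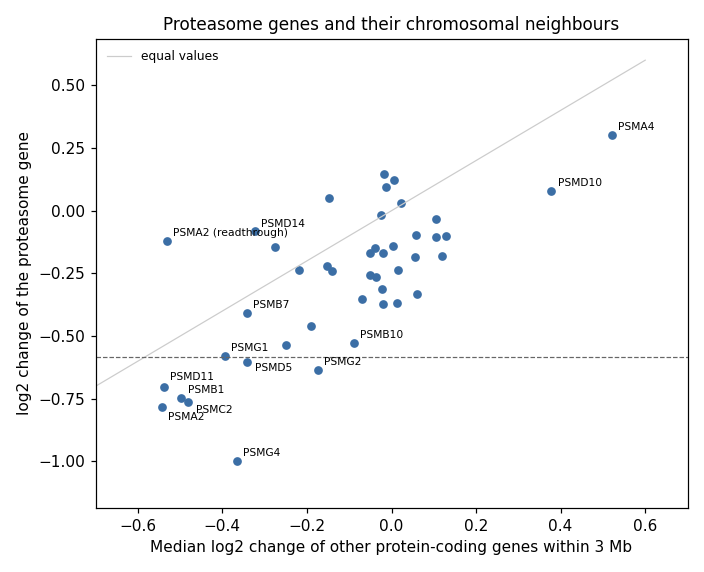
Log2 change of each of 44 proteasome genes in LM2 against MDA-MB-231 (vertical axis) over the median log2 change of other protein-coding genes tested within 3 Mb (horizontal axis), with a dashed line at 1.5-fold lower and a grey line of equal values. The 7 genes under the dashed line all have neighbours with a negative median, as do 30 of all 44, and 35 of the 44 points lie below the grey line.

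Genes that work with the proteasome were read from lists. Of 14 accessory and assembly genes, 9 were lower, with a median log2 change of -0.20. TXNL1, a thioredoxin-like protein bound to the 19S cap, was called lower, from 54.2 FPKM (39.7 to 68.8) in the parental line to 29.5 FPKM (20.9 to 38.2) in LM2 (log2 change -0.86). It starts at 54264440 on chromosome 18, far from PSMG2 at 12658042 and from the proteasome deubiquitinase USP14 at 158383 on the same chromosome. USP14 had 68.8 FPKM (46.4 to 91.1) and 45.2 FPKM (30.4 to 60). POMP, the maturation factor of the core, had 75.5 and 79 FPKM. The highest log2 change of this list was that of UCHL5, a deubiquitinase of the cap, with 43.9 and 46.9 FPKM (0.10).

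Of 10 genes tied to proteasome gene transcription, 5 were lower and 5 higher, with a median log2 change of -0.0040. NFE2L1, whose product induces proteasome genes when the proteasome is impaired, had 117.7 FPKM (66.6 to 168.7) and 129.2 FPKM (72.2 to 186.1). NFE2L2, the antioxidant regulator that acts through AREs, had 65.8 FPKM (44.1 to 87.5) and 41.1 FPKM (26.8 to 55.3), and exons of other genes overlap 38.4% of its exon bases. MAFF, a small partner of both, was called higher, from 14.4 FPKM (10.6 to 18.3) to 32.2 FPKM (24.4 to 40.1) (log2 change 1.11). Among 14 ubiquitin and shuttle genes, 11 were lower with a median of -0.11 and none was called. UBA1, the main ubiquitin-activating enzyme, had the lowest change at 175.9 FPKM (134.3 to 217.6) and 111.6 FPKM (85.6 to 137.6). DDI2, the protease that activates the product of NFE2L1, had the highest, at 3.85 and 5.41 FPKM (log2 change 0.40).

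Of 12 genes in the interferon route to the immunoproteasome, 11 were tested and 10 of these were lower, with a median log2 change of -0.18. IFNGR2, a chain of the interferon gamma receptor, was called lower, from 54.1 FPKM (38.1 to 70) to 25.8 FPKM (17.8 to 33.7) (log2 change -1.04). It starts at 34775719 on chromosome 21, where PSMG1 starts at 40546695 and BACH1, of the transcription list, at 30566392. BACH1 was higher in LM2 (log2 change 0.42) without a call. The other chain of the receptor, IFNGR1, was the 1 higher gene of the interferon list. It had 16.9 FPKM (12.6 to 21.2) and 22 FPKM (16.5 to 27.6) (log2 change 0.36), and was not called. IRF1, the factor that induces PSMB8, PSMB9 and PSMB10, had 33.5 FPKM (24 to 43.1) and 20.4 FPKM (14.4 to 26.3), past 1.5-fold with overlapping bounds. NLRC5, an activator of class I genes, had 9.43 and 8.23 FPKM. Of 13 entries for class I antigen presentation, 5 entries in the region with PSMB8 and PSMB9 were under the filter. Of the 8 tested, 7 were lower, with a median log2 change of -0.46. The highest was CANX, a chaperone of class I folding, with 509.6 and 538 FPKM (0.08). B2M, the class I light chain on chromosome 15, had 1922 and 1703.7 FPKM. HLA-B was called lower, from 30.5 FPKM (22.4 to 38.6) to 11.9 FPKM (8.35 to 15.4), as was HLA-C, from 4.81 FPKM (2.996 to 6.63) to 1.79 FPKM (0.953 to 2.62). Both lie among the low values described for PSMB9, and exons of other genes overlap 45.3% of the exon bases of HLA-B. The values of this stretch may not give the genes' levels, so these calls and the median of the list are uncertain. Over the 5 lists, 56 entries were tested, of which 1 was called higher and 4 lower, against 4.67% and 4.61% of all genes.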

How the data were processed

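RNA-Seq data came from 2 libraries of each cell line. Per the labels and the methods, the authors aligned reads to hg19 with TopHat 2.0 and quantified GENCODE 19 genes with Cufflinks. The authors deposited FPKM values per gene and cell line, with bounds and a status and both libraries combined. Library scaling, the use of strand and the depth counted on genes are not given in the sources used here, so the precision was read from the bounds.

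Log2 changes and calls were calculated in Python 3.11.15 with pandas 2.3.3 and NumPy 2.4.6, drawn with Matplotlib 3.10.9, and the call was tested on simulated data. A design with limma for values per library could not be used on 1 value per cell line. Positions and exon overlaps on either strand came from GENCODE 44 on GRCh37, matched by Ensembl ID (49 of 50 members). Members and lists were chosen with earlier results of these data known. Named were the interferon-inducible genes and their counterparts, members called or past 1.5-fold, the extremes of each role, members under the filter, and called or extreme genes of the lists. Further members were named for their role. The values of 1 gene of the lists are not reported here. Alternatives were other pseudocounts, filters, folds and scalings.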

Additional observations from a re-analysis of the deposited data

How the results depend on the processing

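PSMB1 was the 1 member called, and the number of members called, all of them lower, was 0 at a fold of 2, 0 after scaling to the same FPKM sum, and 7 by the fold of 1.5 alone. Of 56 entries tested in the 5 lists, 5 were called, and 11 by the fold of 1.5 alone, where over all genes 10.3% were past it higher and 11.8% lower. The median log2 change of the members stayed between -0.24 and -0.16 over the other pseudocounts, filters and scalings. The difference between the interferon-inducible and the other members ranged from -0.30 with PSMB10 alone to -0.04 with PSME1 and PSME2 alone. It was 0.02 without the filter, where the values of 0 for PSMB8 and PSMB9, which give no level, enter as no change. No paired analysis was possible because each cell line has 1 value, and leaving out a replicate was not run for the same reason. The sources used here do not say if the spread of the libraries is part of the bounds.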

Other observations

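The table also lists 30 pseudogene entries of proteasome genes, of which 23 were at 0 in both cell lines. PSMD10P2 was the 1 entry that reached 0.5 FPKM, with 0.351 FPKM (0.0438 to 0.658) in the parental line against 0.888 FPKM (0.34 to 1.44) in LM2, and its bounds overlap. PSMC3IP, which encodes a recombination factor and no proteasome subunit, had 19.2 FPKM (4.43 to 33.9) and 22 FPKM (5.86 to 38.1). PSMD5-AS1, antisense to PSMD5, had 6.99 FPKM (0 to 15.3) and 9.75 FPKM (1.72 to 17.8), whereas PSMD5 itself was lower in LM2. Counting is not stated to use strand, and no exon of another gene overlaps those of PSMD5.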
